A study of Homo sapiens with 8 samples.

Results

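The response of PC-3 cells to TGF-β1 alone was measured on 4 microarrays, 2 of cells exposed to TGF-β1 at 5 ng/mL for 24 h and 2 of control cells. PC-3 is an established human prostate cancer line that grows without androgen. The series holds 8 arrays in 4 groups of 2, and its other groups received calcitriol, the active form of vitamin D, at 10 nM for 24 h, with TGF-β1 (the combination) or without it. All cells were kept in serum-containing medium, and the labels name neither a vehicle nor an incubation time for the controls. Per the labels, the 2 arrays of a group come from independent experiments. The measurements were chosen as all array features with exactly 1 gene symbol, 36176 of 138745 features, and 23854 genes were bright enough to be tested. A level is the deposited log2 value of a gene's brightest feature, and a log2 change is the mean level with TGF-β1 minus the mean level in control cells. Levels of different genes come from different probes and are not compared. RNA of a whole culture was measured, so fewer cells expressing a gene and less RNA per cell cannot be told apart.

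TGF-β1 is a secreted growth factor that leaves the cell bound in a latent complex with a latency protein, and it acts once released from it. The active dimer joins a type II receptor (TGFBR2) to a type I receptor (TGFBR1), which phosphorylates SMAD2 and SMAD3. These enter the nucleus with SMAD4 and bind DNA at short CAGAC elements, together with partner factors such as AP-1. Among the induced genes are inhibitors of the pathway itself. In epithelial cells TGF-β is known for slowing the cell cycle, for the deposition of extracellular matrix and for loosening cell contacts during epithelial-mesenchymal transition (EMT).

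Replicates correlated at r = 0.991 for the TGF-β1 arrays and 0.988 for the control arrays across the genes tested, and arrays of different treatment at 0.985 to 0.987, with genes that are not independent of each other. The median gap between positive and negative control features, a measure of signal over background, was 6.91 and 6.94 on the TGF-β1 arrays, against 7.02 and 7.04 on the control arrays (log2), and its part in the results was not tested. The epithelial markers KRT8, KRT18, KRT19, EPCAM and CDH1 lay above background on all 4 arrays, 5 of 5. The prostate luminal markers KLK3, KLK2 and TMPRSS2 lay above background too. Above background on all 4 arrays were 2 of 7 fibroblast and smooth muscle markers, 3 of 6 leukocyte, 3 of 6 endothelial and 1 of 4 neuroendocrine markers, and FAP, CD3D, MS4A1, KDR and TEK lay at background on every one of them. The log2 of the summed fibroblast markers was 7.48 and 7.71 with TGF-β1, against 7.44 and 7.71 in controls. That of the epithelial markers was 12.95 and 12.99 with TGF-β1, against 13.08 and 13.10 in controls, and that of the prostate luminal markers 7.88 and 8.05 with TGF-β1, against 8.09 and 8.19 in controls. Both of these were lower on each TGF-β1 array, and their part in the results was not tested.

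TGF-β1 changed 145 of 23854 genes (0.608%), of which 82 were higher (0.344%) and 63 lower (0.264%) at an adjusted p under 0.05 in limma. Those that rose include genes for matrix proteins, integrins, cytokines and inhibitors of TGF-β signalling, and those that fell include enzymes of prostaglandin and retinoid metabolism and inhibitors of receptor tyrosine kinase signalling. A change of at least 2-fold was measured for 61 genes, 39 higher and 22 lower. Protein-coding genes made up 129 of the 145, which is 0.872% of those tested, against 0.177% of the other genes. Both TGF-β1 arrays lay outside the range of the controls for 43.2% of all genes, so non-overlap alone is common here. An unadjusted p under 0.05 in limma was found for 12.6% of all genes. The counts given below for gene lists are to be read beside these shares. The median change was -0.03 over all genes and -0.06 over protein-coding genes.

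The number of calls rested on the spread pooled over 8 arrays. With the 4 arrays of TGF-β1 and control alone 12 genes passed, with log2 changes that this choice leaves as they are. Without TGF-β1 A or B 12 genes passed, without control A 26, without control B 14, without combination A or B 42 and without calcitriol A or B 48. The same 10 genes passed in each of these 8 fits, namely TGFBI, IGFBP3, KPNA7, HPGD, SPRY1, TBXAS1, ANKRD22, CCNA1, STEAP4 and RDH10.

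TGFBI, a secreted matrix protein that takes its name from TGF-β, had levels of 10.39 and 10.47 with TGF-β1, against 7.30 and 7.01 in control cells. This was a log2 change of 3.27 ± 0.14, or 9.68-fold (SE, n = 2 per group, adjusted p = 0.000464), the largest of all genes tested. IGFBP3, which binds insulin-like growth factors in the extracellular fluid, stood at 11.77 and 11.88 with TGF-β1, against 9.84 and 9.92 in controls. Its arrays were widely separated and the change was 1.95 ± 0.11 (adjusted p = 0.00105). HPGD, the dehydrogenase that inactivates prostaglandins, gave 7.08 and 6.95 with TGF-β1, against 9.01 and 8.89 in controls. SPRY1, an intracellular inhibitor of receptor tyrosine kinase signalling, gave 8.05 and 8.10 with TGF-β1, against 9.90 and 9.94 in controls. The groups were far apart for both genes, and HPGD fell by 1.94 ± 0.10 and SPRY1 by 1.84 ± 0.10 (adjusted p = 0.00105 for each).

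**Figure D1:**
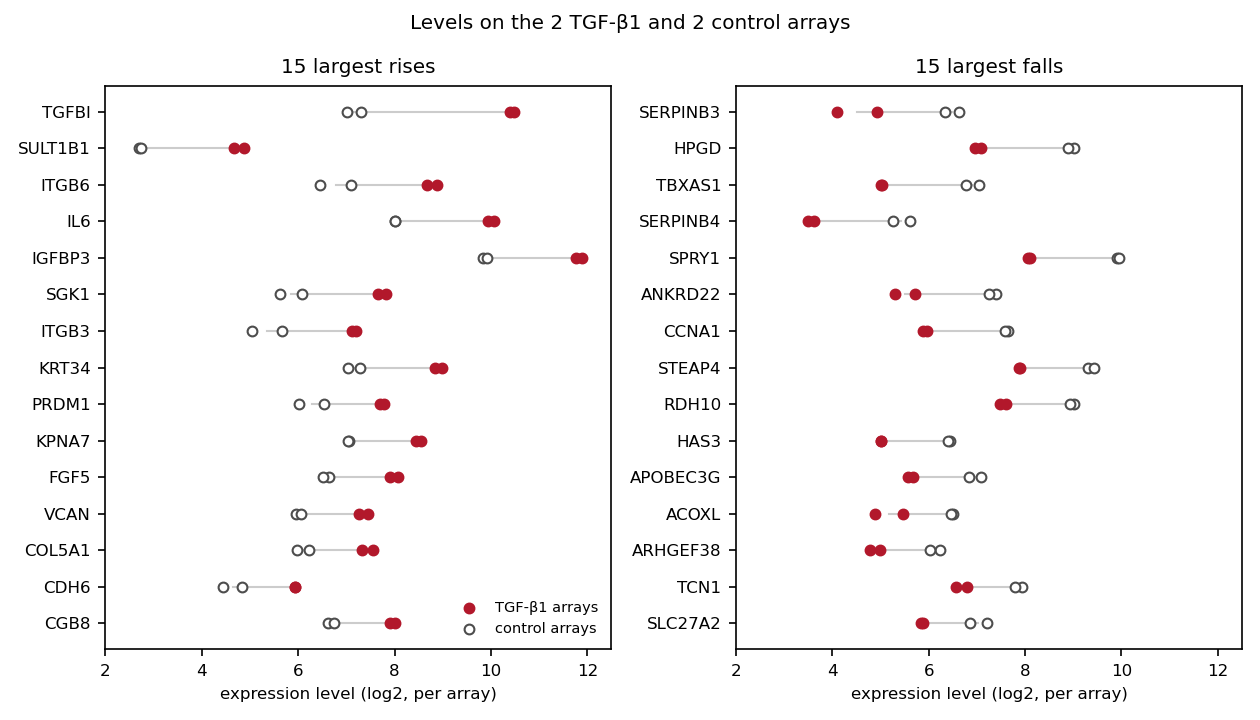
Log2 expression levels (horizontal axes) of the 15 protein-coding genes with the largest rises (left panel) and the 15 with the largest falls (right panel), with 1 filled point per TGF-β1 array, 1 open point per control array and a grey line between the group means. For every gene shown the points of the 2 groups are separate, and TGFBI has the widest gap, with 10.39 and 10.47 against 7.30 and 7.01; SULT1B1 lay at background in controls and on 1 TGF-β1 array, and CDH6, SERPINB3 and SERPINB4 were partly or wholly at background in their lower group.

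Genes of the pathway itself were then read in the order of its steps. Of the 19 ligands and latency proteins tested, 1 rose and 1 fell, with a median change of -0.04. LTBP2, a matrix protein related to the latency proteins, was at 7.68 and 7.83 with TGF-β1, against 6.78 and 6.35 in controls. The arrays did not overlap and LTBP2 rose by 1.19 ± 0.15 (adjusted p = 0.0247). INHBB, the activin B subunit, gave 9.27 and 9.20 with TGF-β1, against 10.15 and 10.26 in controls, and fell by 0.97 ± 0.10 (adjusted p = 0.0124). TGFB1 itself had a change of 0.01 (adjusted p = 0.979), with levels of 8.29 and 8.25 with TGF-β1, against 8.25 and 8.27 in controls. INHBA, the activin A subunit, stood at 0.48 (adjusted p = 0.119) and LTBP1, which binds the latent TGF-β complex, at 0.52 (adjusted p = 0.123), neither past the threshold. The remaining members lay between -0.51 for GDF15, a stress-induced family member, and 0.37 for FURIN, the protease that cleaves the TGF-β precursor.

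None of the 13 receptors and co-receptors passed in limma, and 3 had an unadjusted p under 0.05, as did 3003 of all 23854 genes. TGFBR1 differed by 0.26 (adjusted p = 0.46) and TGFBR2 by -0.47 (adjusted p = 0.128), and TGFBR2 had levels of 9.49 and 9.30 with TGF-β1, against 9.91 and 9.82 in controls. BMPR2, the type II receptor for bone morphogenetic proteins (BMPs), came nearest, with both TGF-β1 arrays above both controls (0.71 ± 0.12, adjusted p = 0.0564). The co-receptors ENG and TGFBR3 stood at 0.23 and -0.28, and the 13 changes ran from -0.55 for BMPR1B, a type I receptor for BMPs, to 0.71 for BMPR2. After loess scaling over protein-coding genes alone, 1 of the 13 rose.

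Among 23 SMADs, SMAD partners and inhibitors, 3 rose and 0 fell, with a list median of -0.04. All 3 are inhibitors of the pathway. PMEPA1, a membrane protein that holds SMADs away from the receptor, gave 10.66 and 10.92 with TGF-β1, against 9.58 and 9.63 in controls, a rise of 1.19 ± 0.12 (adjusted p = 0.0124). SKIL, the co-repressor SnoN that binds SMAD complexes on DNA, gave 9.54 and 9.37 with TGF-β1, against 8.59 and 8.54 in controls, a rise of 0.89 ± 0.10 (adjusted p = 0.0208). SMAD7, which blocks the type I receptor, gave 7.30 and 7.49 with TGF-β1, against 6.65 and 6.52 in controls. The SMAD7 arrays were likewise separate and the rise was 0.81 ± 0.13 (adjusted p = 0.0466), on the brighter of its features, with 0.49 (adjusted p = 0.197) on the other. The signal carriers SMAD2, SMAD3 and SMAD4 differed by -0.01, 0.01 and 0.08, with adjusted p of 0.857 or more. The ubiquitin ligases SMURF1 and SMURF2, which act on the receptors together with SMAD7, stood at 0.33 and 0.47, and the co-repressor SKI at -0.05. The remaining members lay between -0.31 for ZFYVE9, which presents SMADs to the receptor, and 0.21 for BAMBI, a decoy receptor.

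Promoters of genes that rose and of genes that fell are shown because SMADs are known to read the CAGAC element. Of 8 promoters read, the 4 with a match and that of TGFBI are printed, and those of PMEPA1, JUNB and LTBP2 have no match in this window either. Each sequence holds the 250 bases before the annotated start of the gene, 5′ to 3′ on the gene's strand, from RefSeq on GRCh38.p14. Capitals mark CAGAC, or GTCTG where it lies on the other strand. TGFBI (chr5:136028738-136028987, plus strand) has no match in this window, SMAD7 (chr18:48950966-48951215, minus strand) has 2, which begin 217 and 128 bases before the start, and SKIL (chr3:170357465-170357714, plus strand) has 1 at 107 bases. Of the genes that fell, SPRY1 (chr4:123396545-123396794, plus strand) has 1 at 168 bases and HPGD (chr4:174522489-174522738, minus strand) has 1 at 196 bases.
TGFBI: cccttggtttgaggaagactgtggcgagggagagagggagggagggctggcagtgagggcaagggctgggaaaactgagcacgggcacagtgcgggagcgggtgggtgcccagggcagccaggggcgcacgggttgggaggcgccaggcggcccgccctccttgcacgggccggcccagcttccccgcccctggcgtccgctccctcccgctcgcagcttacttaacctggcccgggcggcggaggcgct
SMAD7: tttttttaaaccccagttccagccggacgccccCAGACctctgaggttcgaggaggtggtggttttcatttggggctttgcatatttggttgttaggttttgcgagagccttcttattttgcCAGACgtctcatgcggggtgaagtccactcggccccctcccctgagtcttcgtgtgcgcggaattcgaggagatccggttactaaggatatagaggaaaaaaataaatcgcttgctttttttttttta
SKIL: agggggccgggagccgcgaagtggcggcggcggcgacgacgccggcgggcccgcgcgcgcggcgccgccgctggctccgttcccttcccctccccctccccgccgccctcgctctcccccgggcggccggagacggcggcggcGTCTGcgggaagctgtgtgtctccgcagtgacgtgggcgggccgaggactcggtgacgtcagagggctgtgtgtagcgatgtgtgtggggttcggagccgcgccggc
SPRY1: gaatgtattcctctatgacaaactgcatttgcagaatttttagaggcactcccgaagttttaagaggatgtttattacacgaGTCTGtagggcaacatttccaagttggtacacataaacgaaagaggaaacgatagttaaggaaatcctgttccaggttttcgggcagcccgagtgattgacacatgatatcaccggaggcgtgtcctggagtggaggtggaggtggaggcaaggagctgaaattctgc
HPGD: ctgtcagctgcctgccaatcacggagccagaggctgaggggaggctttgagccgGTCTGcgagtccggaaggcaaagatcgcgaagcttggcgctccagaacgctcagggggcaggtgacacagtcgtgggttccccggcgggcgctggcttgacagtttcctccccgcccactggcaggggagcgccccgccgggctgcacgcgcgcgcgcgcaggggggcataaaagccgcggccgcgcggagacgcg

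A promoter sequence was found for 52 of the 71 protein-coding genes that rose and 41 of the 58 that fell. CAGAC on either strand occurred in 36.5% of the risen and 39.0% of the fallen, against 36.6% of 12034 protein-coding genes tested. The AP-1 element TGANTCA occurred in 1.92% and 4.88%, against 4.52%, and the palindrome GTCTAGAC, which reads AGAC on both strands, in 0 of either group, against 0.166%. The shares of genes with a match lay near that of all genes, and a match in this window is a description of letters and no binding site.

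In the BMP branch, whose ligands signal through other SMADs, none of 17 genes passed, with a median change of -0.0043. An unadjusted p under 0.05 was found for 3, against 12.6% of all genes. BMP2 stood at 0.64 (adjusted p = 0.133), the activin and BMP antagonist FSTL3 at 0.51 (adjusted p = 0.103) and ID3, a target of BMP signalling, at 0.52 (adjusted p = 0.357). ID1 and ID2, of the same family, differed by -0.10 and -0.03, and BMP6 and GDF5 lay at background on all 4 arrays. The other members lay between -0.21 for CHRD and 0.32 for NOG, both BMP antagonists.

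**Figure D2:**
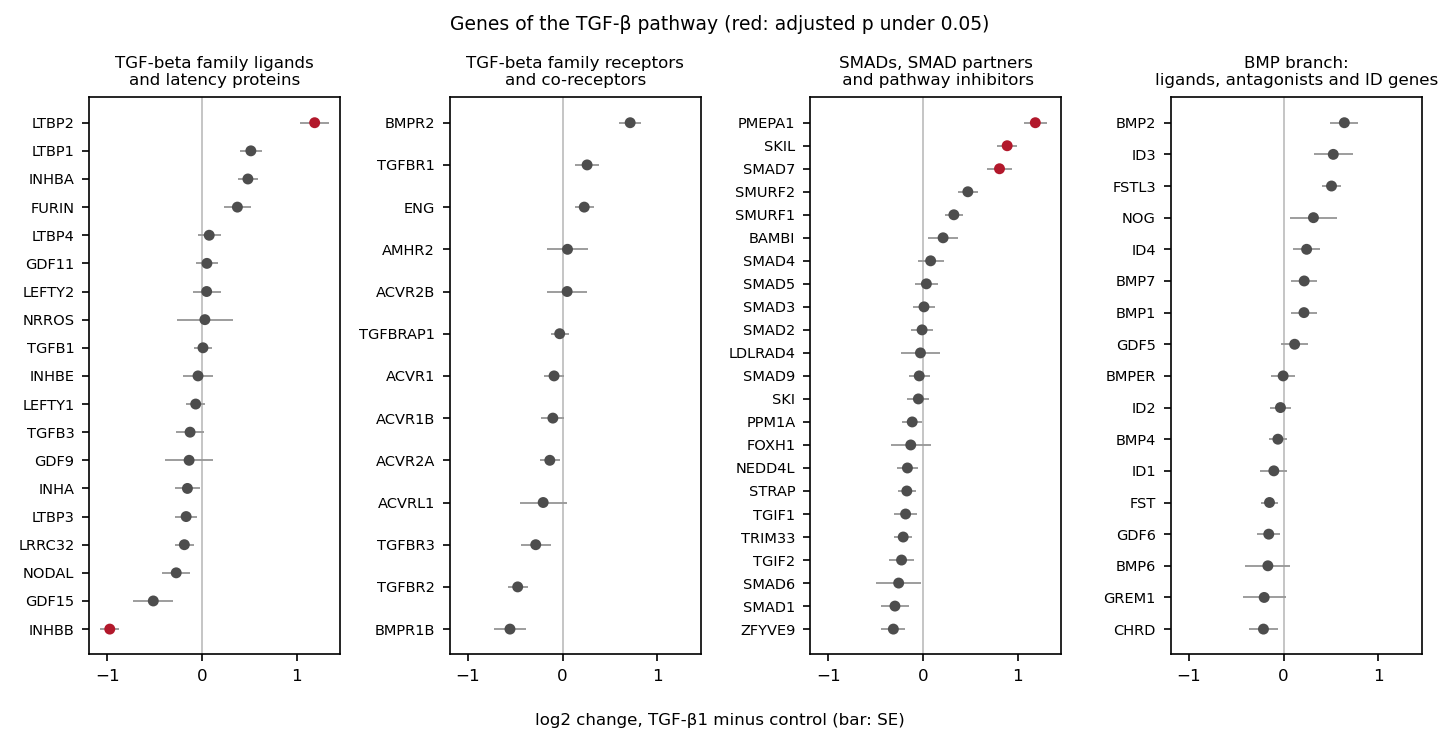
Log2 change (TGF-β1 minus control, horizontal axes) of each tested gene of the 4 pathway lists, 1 panel per list, with bars for the moderated SE of limma and red points for an adjusted p under 0.05. The red points are LTBP2 (1.19) and INHBB (-0.97) among ligands, PMEPA1 (1.19), SKIL (0.89) and SMAD7 (0.81) among SMAD partners, and none among the 13 receptors or the 17 BMP genes.

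Of 29 textbook targets of TGF-β tested, 8 rose and 0 fell, with a median change of 0.44. Beside TGFBI, IGFBP3 and LTBP2 these were FN1, the matrix protein fibronectin (1.19), the AP-1 subunit JUNB (1.12), CDKN1A, the p21 inhibitor of cyclin-dependent kinases (1.09), the adhesion protein AMIGO2 (1.06) and the tropomyosin TPM1 (0.84), with adjusted p between 0.0128 and 0.0247 for these and LTBP2. CDKN1A stood at 8.00 and 7.75 with TGF-β1, against 6.71 and 6.86 in controls. COL4A1, a basement membrane collagen, stood at 1.33 (adjusted p = 0.0592) and the actin-binding protein TAGLN at 0.83 (adjusted p = 0.0509), both just short of the threshold. Several equally familiar targets moved little, among them CCN2, a matricellular growth factor (0.02, adjusted p = 0.975), the smooth muscle actin ACTA2 (-0.08), the collagen gene COL1A1 (-0.16), the transcription factor KLF10 (0.13) and CDKN2B, the p15 inhibitor (0.09). The genes of this list named without a passing change were chosen after their values were seen. The list itself was drawn up with earlier results of these data known, so its count and median are a description and no test.

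**Figure D3:**
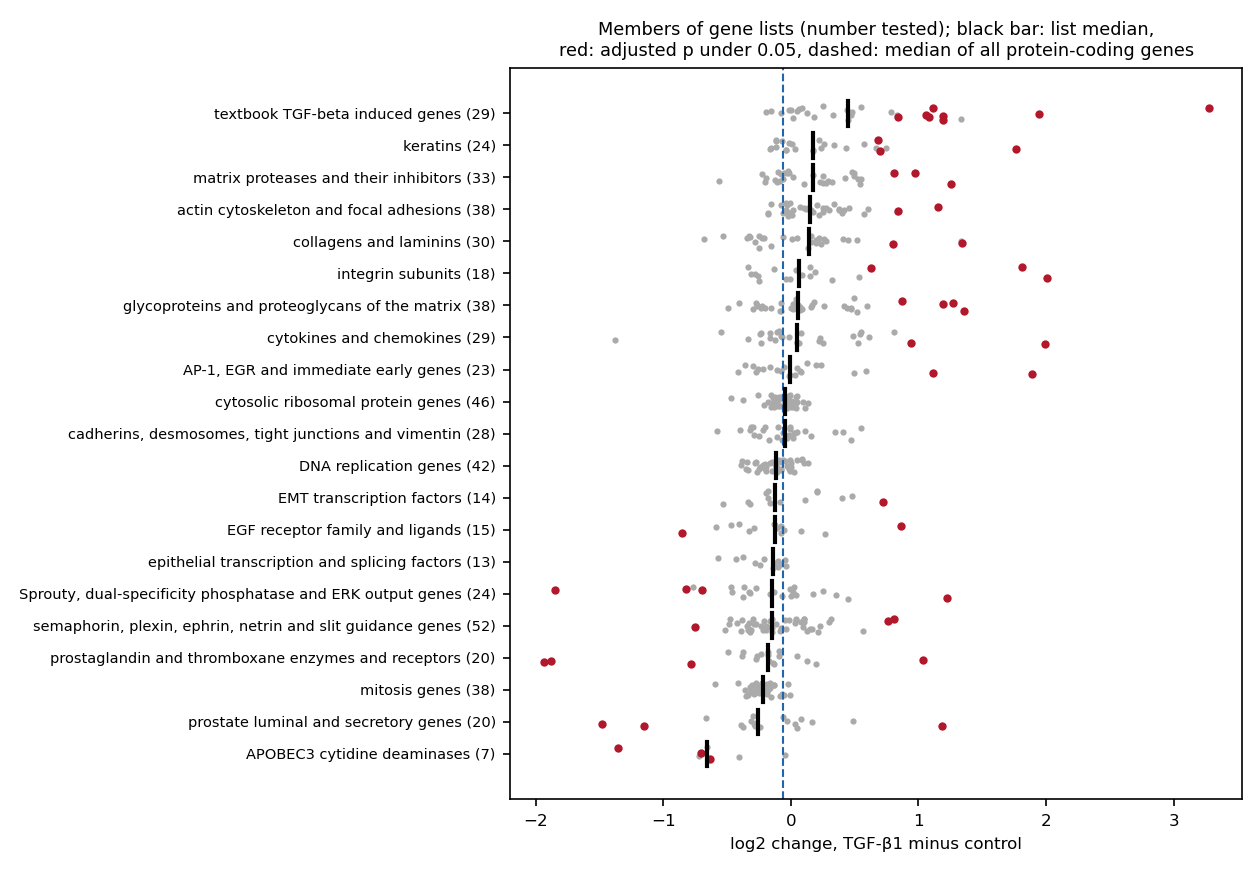
Log2 change (TGF-β1 minus control, horizontal axis) of each tested member of 21 gene lists, with red points for an adjusted p under 0.05, a black bar at the list median and a dashed line at the median of all protein-coding genes (-0.06). The textbook TGF-β targets have the highest median, 0.44, and the APOBEC3 family the lowest, -0.66, while the mitosis genes lie in a narrow band with a median of -0.22 and no red point. The lists were chosen with earlier results of these data known, so the order of their medians is a description and no test.

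Several structural proteins of the matrix rose. Of 30 collagens and laminins 2 rose and 0 fell, COL5A1, a chain of fibrillar type V collagen, and COL6A3, a chain of microfibrillar type VI collagen. COL5A1 gave 7.55 and 7.33 with TGF-β1, against 5.98 and 6.22 in controls, a rise of 1.34 ± 0.14 (adjusted p = 0.0124), and COL6A3 rose by 0.80 (adjusted p = 0.0225). Of 38 glycoproteins and proteoglycans 4 rose and 0 fell, with a median of 0.05. They were the large proteoglycan VCAN (1.36, at 7.27 and 7.45 with TGF-β1, against 5.96 and 6.05 in controls), the proteoglycan SPOCK1 (1.27), FN1 (1.19) and the fibulin EFEMP1 (0.87). None of 19 genes for collagen modification and cross-linking passed, with 7 at an unadjusted p under 0.05, against 12.6% of all genes. The cross-linking enzyme LOX stood at 0.54 (adjusted p = 0.188).

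Matrix proteases and their inhibitors gave 3 rises and 0 falls among 33, with a median of 0.17. ADAMTS6, a secreted metalloprotease, gave 6.67 and 6.83 with TGF-β1, against 5.31 and 5.68 in controls (1.25 ± 0.15, adjusted p = 0.0232). SERPINE2, an inhibitor of thrombin and urokinase, rose by 0.97 and MMP14, a membrane-bound collagenase, by 0.81. The urokinase gene PLAU (0.49), its receptor PLAUR (0.48) and the inhibitor TIMP1 (0.49) each had adjusted p between 0.0843 and 0.0857 and did not pass.

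Of 18 integrin subunits, the receptors that hold cells to the matrix, 3 rose and 0 fell. ITGB6, whose heterodimer with the αv subunit binds and activates latent TGF-β, stood at 8.89 and 8.68 with TGF-β1, against 7.10 and 6.46 in controls. Its control arrays differed from each other by more than its TGF-β1 arrays did, yet the groups stayed far apart (2.00 ± 0.20, adjusted p = 0.0124). ITGB3 gave 7.20 and 7.13 with TGF-β1, against 5.05 and 5.66 in controls (1.81 ± 0.19, adjusted p = 0.0134), and ITGA5, the fibronectin receptor subunit, rose by 0.63 (adjusted p = 0.0447). ITGAV, the αv subunit shared by ITGB6 and ITGB3, stood at 0.54 (adjusted p = 0.0666), while ITGB8 and ITGB4 stood at -0.26 and -0.34. In the actin cytoskeleton list 2 of 38 rose and 0 fell, with a median of 0.15: RHOB, a small GTPase (1.16), and TPM1 (0.84). Both TGF-β1 arrays lay above both controls for 22 of these 38 genes, against 17.1% of all genes.

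Of 14 EMT transcription factors tested, only SNAI2, the repressor Slug, passed. It gave 11.56 and 11.62 with TGF-β1, against 10.85 and 10.88 in controls, a rise of 0.72 ± 0.10 (adjusted p = 0.0306). SNAI1, ZEB1, ZEB2 and TWIST1, the other classical repressors, stood at 0.20, 0.21, -0.32 and -0.34, with adjusted p from 0.34 to 0.732. No gene of the junction list passed in the main fit: of 28 cadherins, desmosome and tight junction genes and vimentin 0 rose and 0 fell. After loess scaling over protein-coding genes alone, 1 of the 28 rose. In the main limma fit an unadjusted p under 0.05 was found for 10 of them, against 12.6% of all genes. E-cadherin (CDH1) differed by -0.01 (adjusted p = 0.987), with levels of 9.26 and 9.30 with TGF-β1, against 9.36 and 9.22 in controls. N-cadherin (CDH2) stood at 0.41 (adjusted p = 0.171) and the intermediate filament VIM at 0.55 (adjusted p = 0.0891). None of 13 epithelial transcription and splicing factors passed either, while 1 fell after the loess scaling. In the main limma fit 4 had an unadjusted p under 0.05, against 12.6% of all genes. Both TGF-β1 arrays lay below both controls for 8 (26.1% over all genes). The list median was -0.14, with changes from -0.57 for ELF3 to -0.03 for CEBPD. Genes without a passing change in these lists were picked after their values were seen.

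Outside the junction list CDH6, a cadherin, was higher, at 5.94 and 5.93 with TGF-β1, against 4.84 and 4.44 in controls. Because 1 control array lay at background, CDH6 has levels and no fold (adjusted p = 0.0312). The cadherin CDH7 and NECTIN1, an adhesion molecule of adherens junctions, were outside the list too and lower. Their changes were -0.81 and -0.78 (adjusted p = 0.0318 for each in limma). Of 24 keratins 3 rose and 0 fell, with a median of 0.18. KRT34, a hair-type keratin, gave 8.84 and 8.99 with TGF-β1, against 7.03 and 7.28 in controls (1.77 ± 0.14, adjusted p = 0.00399). KRT7, a simple epithelial keratin, and KRT83, another hair-type one, rose by 0.70 and 0.69. A second, dimmer feature of KRT7 stood at 0.10 (adjusted p = 0.829), and keratin genes resemble each other closely enough that probes may share signal. The luminal keratins KRT8, KRT18 and KRT19 differed by -0.12, -0.16 and -0.07.

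Of 29 cytokines and chemokines, 2 rose and 0 fell. IL6, an inflammatory cytokine, stood at 9.94 and 10.05 with TGF-β1, against 8.01 on each control array, 3.97-fold higher (1.99 ± 0.15, adjusted p = 0.00315). IL1B, another inflammatory cytokine, gave 10.29 and 10.33 with TGF-β1, against 9.38 and 9.36 in controls (0.94 ± 0.10, adjusted p = 0.0124). IL1A stood at 0.81 (adjusted p = 0.155) and IL11, of the IL6 family, at 0.55 (adjusted p = 0.103). The chemokines CXCL8 and CXCL1 stood at -0.16 and -0.07. Of 31 cytokine receptors and signal transducers only IL13RA2, the decoy receptor for interleukin 13, rose (0.91), and of 40 interferon and antigen presentation genes only PDCD1LG2, the PD-1 ligand PD-L2 (0.87).

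Growth factor genes gave 3 rises among 24 members of the FGF, PDGF and VEGF families. FGF5, a fibroblast growth factor, gave 7.90 and 8.07 with TGF-β1, against 6.65 and 6.53 in controls (1.40 ± 0.14, adjusted p = 0.0124). VEGFA, the main angiogenic factor, rose by 0.79 and its co-receptor NRP2 by 0.81. In the EGF family the ligands went opposite ways, HBEGF higher by 0.86 and EREG lower. EREG stood at 4.07 and 4.33 with TGF-β1, at background, against 5.04 and 5.06 in controls, and was at least 1.24-fold lower (adjusted p = 0.0447).

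Genes that report or restrain ERK signalling, downstream of these receptors, gave 1 rise and 3 falls among 24, with a median of -0.15. Beside SPRY1, DUSP6, the phosphatase that inactivates ERK, fell by 0.82 (8.45 and 8.30 with TGF-β1, against 9.15 and 9.24 in controls), and ETV1, an ETS factor, fell by 0.69. DUSP1, a phosphatase acting mainly on the stress-activated kinases p38 and JNK, rose by 1.22 ± 0.13 (7.50 and 7.53 with TGF-β1, against 6.29 and 6.30 in controls, adjusted p = 0.0124). SPRY2 and SPRY4 did not pass (adjusted p = 0.995 and 0.202), and SPRY4 stood at -0.77. Of 23 immediate early genes JUNB and SGK1 rose. SGK1, a kinase that regulates ion transport and survival, gave 7.83 and 7.66 with TGF-β1, against 6.09 and 5.62 in controls (1.89 ± 0.20, adjusted p = 0.0134), while FOS and EGR1 stood at 0.07 and -0.41.

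Among 20 prostaglandin and thromboxane genes, 1 rose and 3 fell. PTGS2, the inducible cyclooxygenase that starts prostaglandin synthesis, gave 8.94 and 9.03 with TGF-β1, against 8.16 and 7.75 in controls (1.03 ± 0.14, adjusted p = 0.0318). HPGD, which ends prostaglandin action, is described above, and TBXAS1, thromboxane synthase, gave 5.02 and 5.03 with TGF-β1, against 7.03 and 6.77 in controls (-1.88 ± 0.12, adjusted p = 0.0019). PTGFR, the receptor for prostaglandin F, fell by 0.78. The E-type receptors PTGER2 and PTGER4 stood at -0.09 and 0.13.

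The APOBEC3 cytidine deaminases, which mutate viral and cellular DNA, fell in 3 of 7 members and had the lowest list median, -0.66. This list was chosen with earlier results of these data known, so its rank is no test. APOBEC3G stood at 5.67 and 5.57 with TGF-β1, against 6.85 and 7.09 in controls (-1.35 ± 0.15, adjusted p = 0.0164). APOBEC3D fell by 0.70 and APOBEC3C by 0.63. APOBEC3B and APOBEC3F stood at -0.66 and -0.72 without passing (adjusted p = 0.126 and 0.134), and APOBEC3A at -0.05. The 7 genes are close relatives in 1 cluster, and their probes may share signal.

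SERPINB3 and SERPINB4, near-identical inhibitors of cysteine and serine proteases that squamous epithelia make, were both lower. SERPINB3 gave 4.09 and 4.93 with TGF-β1, against 6.63 and 6.34 in controls, and because 1 TGF-β1 array lay at background it is given by its levels alone (adjusted p = 0.0247). SERPINB4 gave 3.49 and 3.61 with TGF-β1, at background, against 5.60 and 5.25 in controls, and was at least 1.61-fold lower (adjusted p = 0.0232). The array may not separate the pair. The other 5 clade B serpins tested lay between -0.18 and 0.03.

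STEAP4, a metalloreductase of prostate epithelium, gave 7.88 and 7.89 with TGF-β1, against 9.31 and 9.42 in controls (-1.48 ± 0.10, adjusted p = 0.0019). AGR2, a secretory pathway disulfide isomerase, gave 8.36 and 8.29 with TGF-β1, against 9.46 and 9.49 in controls (-1.15 ± 0.11, adjusted p = 0.0105). In the prostate luminal list of 20 these 2 fell and PMEPA1, also known as an androgen-induced gene, rose, with a list median of -0.26. KLK3, which encodes prostate-specific antigen, stood at 0.05. TCN1, a cobalamin carrier of secretions, fell by 1.18 ± 0.17 (adjusted p = 0.0357).

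RDH10, which makes retinal from retinol, gave 7.47 and 7.59 with TGF-β1, against 9.01 and 8.93 in controls (-1.43 ± 0.10, adjusted p = 0.00242), and it was the only one of 18 retinoid genes to pass. HAS3, a hyaluronan synthase, gave 5.01 and 5.02 with TGF-β1, against 6.45 and 6.39 in controls (-1.41 ± 0.14, adjusted p = 0.0124), while HAS2 stood at 0.28 (adjusted p = 0.329). CEMIP, which depolymerises hyaluronan, passed at background levels in both groups and is given no fold. SLC27A2, a fatty acid transporter and acyl-CoA synthetase, fell by 1.17, and ACOXL, named for its likeness to acyl-CoA oxidases, by 1.30. FBP1, a gluconeogenic phosphatase, fell by 0.83, SLC7A11, the cystine importer, by 0.77 and STS, steroid sulfatase, by 0.69. SULT1B1, a sulfotransferase, was the reverse case, at 4.66 and 4.87 with TGF-β1, against 2.70 and 2.73 in controls. It lay above background on 1 of the 2 TGF-β1 arrays and on neither control array, and was at least 1.03-fold higher (adjusted p = 0.0345).

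Of the remaining largest changes, KPNA7, an importin that carries proteins into the nucleus, gave 8.56 and 8.44 with TGF-β1, against 7.05 and 7.02 in controls (1.46 ± 0.10, adjusted p = 0.0019). PRDM1, the transcriptional repressor Blimp-1, gave 7.78 and 7.71 with TGF-β1, against 6.54 and 6.02 in controls (1.46 ± 0.17, adjusted p = 0.0208). CGB8, a chorionic gonadotropin beta gene with near-identical neighbours that the probes may not separate, rose by 1.28. CCNA1, a cyclin best known from the germ line, gave 5.87 and 5.97 with TGF-β1, against 7.64 and 7.59 in controls (-1.69 ± 0.12, adjusted p = 0.00271). ANKRD22, an ankyrin repeat protein, gave 5.71 and 5.31 with TGF-β1, against 7.40 and 7.26 in controls (-1.82 ± 0.15, adjusted p = 0.0062), and ARHGEF38, a guanine nucleotide exchange factor, fell by 1.24.

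Growth control genes shifted little one by one. Of 26 CDK inhibitors and G1 regulators CDKN1A rose and none fell, and MYC stood at -0.55 (adjusted p = 0.111), at 8.81 and 9.03 with TGF-β1, against 9.41 and 9.53 in controls. None of 38 mitosis genes passed (13 at an unadjusted p under 0.05, against 12.6% of all genes). Their median change was -0.22 (-0.16 after loess scaling over protein-coding genes and -0.19 after quantile scaling). Yet 34 of the 38 had both TGF-β1 arrays below both controls, against 26.1% of all genes. The proliferation antigen MKI67 stood at 10.44 and 10.36 with TGF-β1, against 10.65 and 10.78 in controls (-0.31, adjusted p = 0.28), and TOP2A, a topoisomerase of dividing cells, at -0.35 (adjusted p = 0.201). Of 42 DNA replication genes none passed (8 at an unadjusted p under 0.05), 22 lay below both controls, and the median was -0.12. MKI67 and TOP2A were chosen after their values were seen.

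In other signalling lists, the Hippo genes gave 1 rise and 1 fall among 25. VGLL3, a cofactor of TEAD factors, rose by 1.01 and WWTR1, the effector TAZ, fell by 0.73. In the guidance list of 52 SEMA7A, a membrane-anchored semaphorin, and NRP2 rose, by 0.76 and 0.81, and SEMA3A, a secreted one, fell by 0.75, with -1.07 on a second feature (adjusted p = 0.0501). Of 38 Wnt genes only the receptor FZD4 passed (-0.73). The vitamin D receptor VDR differed by -0.10 (adjusted p = 0.757), and CYP24A1, which inactivates calcitriol, by 0.74 ± 0.35 (adjusted p = 0.452) with 5.96 and 6.50 with TGF-β1, against 5.48 and 5.51 in controls.

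Genes not annotated as protein-coding made up 16 of the 145, 11 higher and 5 lower. NKILA, a long non-coding RNA known to restrain NF-κB, gave 7.14 and 7.22 with TGF-β1, against 5.19 and 5.43 in controls (1.87 ± 0.28, adjusted p = 0.0382). LINC00261, a long non-coding RNA, gave 5.25 and 5.32 with TGF-β1, against 6.86 and 6.41 in controls (-1.36 ± 0.20, adjusted p = 0.0345). APCDD1L-DT rose by 0.87, MGC27382 fell 1.99-fold and MIR3126, a microRNA gene, fell by 0.79. ARHGAP26-IT1 passed with both groups at background and has no fold.

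Combination and calcitriol arrays gave a second measurement of TGF-β1, in calcitriol-treated cells, from 4 other arrays. Both measurements share the spread estimate, the filter and the choice of feature, so passing in both is not an independent repeat. In calcitriol-treated cells 140 genes passed (0.587%). Of the 145 genes changed by TGF-β1 alone, 139 had the same sign in calcitriol-treated cells, against 64.6% of all genes, and 89 passed again in the same direction, 61.4% of the 145 and 63.6% of the 140. Leaving out 1 array of the 8 moved the count of 140 to 0 without combination A (2688 at an unadjusted p under 0.05), 4 without combination B, 1 without calcitriol A or B, 36 without TGF-β1 A or B and 83 without control A or B. The 89 shared genes were 57 of the 82 that rose and 32 of the 63 that fell. Non-overlap in the same direction was seen for 138, where 48.4% of all genes had groups that did not overlap. The median change of the risen genes was 0.93 with and 0.96 without calcitriol, and that of the fallen genes -0.71 with and -0.85 without it. The genes were chosen for passing without calcitriol, so a smaller value with it is no test of a difference.

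TGFBI gave 10.37 and 10.31 on the combination arrays, against 7.64 and 7.36 on the calcitriol arrays, a change of 2.84 beside 3.27 without calcitriol. IL6 changed by 1.89 beside 1.99, SPRY1 by -1.50 beside -1.84 and SKIL by 1.23 beside 0.89. IGFBP3 stood at 12.42 and 12.22 on the combination arrays, against 11.51 and 11.52 on the calcitriol arrays, so the change was 0.80 beside 1.95 without calcitriol. The test of this difference gave -1.14 ± 0.16 (unadjusted p = 0.000101, adjusted p = 0.552). HPGD changed by -1.14 with calcitriol beside -1.94 without it, a difference of 0.80 ± 0.14 (adjusted p = 0.679). Over all genes the test of the difference called 0 of 23854 (0.0%) in limma, with 1229 genes at an unadjusted p under 0.05 (5.15%) and 1 gene called by limma-trend.

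**Figure D4:**
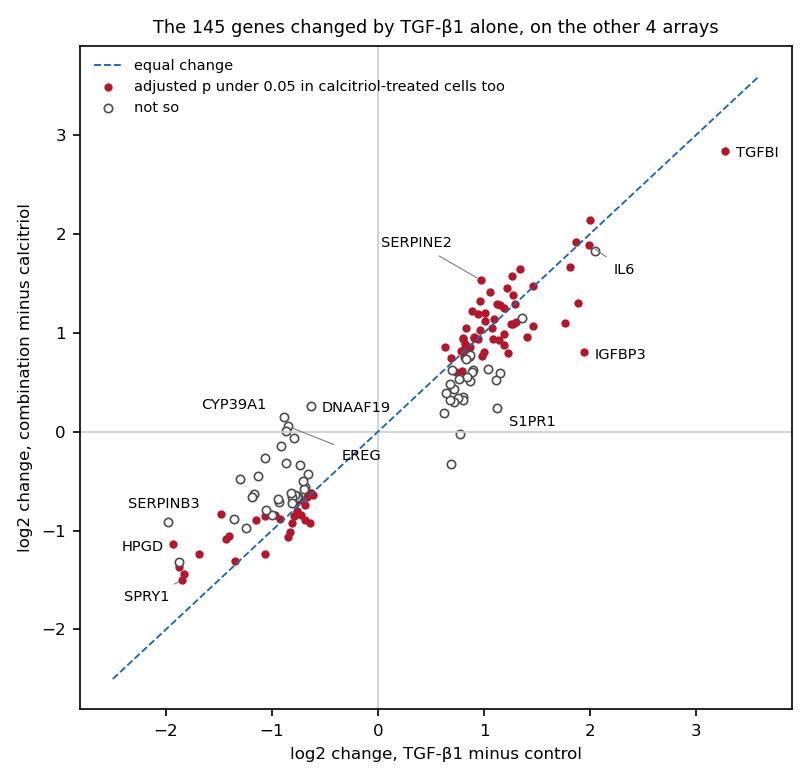
Log2 change of the 145 genes changed by TGF-β1 alone (horizontal axis) against their log2 change in combination over calcitriol arrays (vertical axis), with the line of equal change dashed and filled red points for an adjusted p under 0.05 on the vertical axis too. Of the 145 points 139 lie in the 2 quadrants of equal sign; IGFBP3 lies well below the line, at 0.80 on the vertical and 1.95 on the horizontal axis, and genes at background in 1 group, such as SERPINB3, are plotted at their fitted values.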

How the data were processed

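Gene expression was measured on Clariom D microarrays with total RNA of PC-3 cells. The authors deposited log2 expression values for each feature on each array. The submitters' processing notes name RMA, oligo and limma with no version, and the log base was inferred from the values. Neither the order of the steps nor the array's genome build is stated in the sources used here. The platform's probe list names a single gene for 36176 features, several for 1119 and none for 98455, and 2995 features are array controls. Features had to exceed 4.34, the 50th percentile over features and arrays, in 2 or more of the 8 arrays, and the brightest feature stood for its gene, which left 23854 of 33616 genes (71.0%). In limma 3.58.1 (R 4.3.3 and version 1.17.8 of data.table) each group had its own mean in 1 fit of the 8 arrays, with 4 residual degrees of freedom. Tests were two-sided, with Benjamini-Hochberg adjustment over all genes of a contrast and a threshold of 0.05. Background was the 95th percentile of 612 negative control features, taken per array, and folds against a group wholly at background are lower bounds. Exact permutation of 2 against 2 arrays cannot reach 0.05, and precision is limited by the number of arrays.

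Members and the 48 gene lists (1355 genes, 1134 tested) were chosen with earlier results of these data known, so lists are described by counts and medians without a test. Named genes are the 15 largest protein-coding rises and falls, up to 5 changed members of each list, all members of the pathway lists (named or by range), the main non-coding genes, the lowest p of the interaction, and checks; all other names, among them members of other lists that did not pass, were chosen after their values were seen. Pseudogenes and unnamed loci are not named. The same steps were run on simulated data with independent normal noise around real group means. That noise holds no outlying array and no scaling error, so the run says nothing on either. Alternatives were the filter, the normalization, the feature per gene, the variance moderation, the arrays in the fit, the letter as a block and leaving out each array. The main fit did not use the letters A and B as pairs. Deviations of arrays with the same letter correlated at r = -0.105 to 0.104 between groups over protein-coding genes. Such low values show no large shared shift but cannot show whether the letters pair the samples. Promoters came from RefSeq (GRCh38.p14), matched by symbol.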

Additional observations from a re-analysis of the deposited data

Results flagged for a closer look

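For 4 of the named genes the log2 difference between TGF-β1-treated cells and their controls had opposite signs with and without calcitriol, with all arrays of the treated group on 1 side of their own controls in each case, and none passed the test of the difference in limma. BMP7, a BMP ligand, differed with TGF-β1 by -0.29 in calcitriol-treated cells and by 0.22 in untreated cells, a difference of -0.51 (adjusted p = 0.954), at background on both combination arrays. LINC00592, a long non-coding RNA, gave the lowest p of that test, with -0.96 with calcitriol, 0.40 without it and a difference of -1.36 (adjusted p = 0.385), but it lay at background on all 8 arrays, so no direction is read from it. DNAAF19, a dynein assembly factor, gave 0.26 with calcitriol, -0.63 without it and a difference of 0.89 (adjusted p = 0.552). BBOF1, a basal body protein, gave -0.56 with calcitriol, 0.50 without it and a difference of -1.06 (adjusted p = 0.679), and it lay above background on 1 of the 8 arrays, so no direction is read from it either.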

How the results depend on the processing

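Only another scaling or choice of feature could turn a direction here, since the groups of the 145 genes do not overlap. Under loess scaling (129 of them tested), quantile scaling and the mean of all features none turned. Taken singly, 5 of 6 other features of changed genes had the same sign and none of the 6 passed. The opposite one, of MYH16, stood at -0.28 (adjusted p = 0.471 in limma) against 1.14 on the feature used, and lay above background on 1 of 4 arrays. The number of calls moved. Against 145 genes (82 higher, 63 lower), 12 passed with only the 4 TGF-β1 and control arrays (6 higher, 6 lower), 38 without a filter on dim features (24 and 14), 242 with protein-coding genes alone (127 and 115), 719 with limma-trend (326 and 393) and 271 after loess scaling over protein-coding genes (177 and 94). Quantile scaling, a stricter filter, other rules on features and robust moderation gave 133 to 204. List counts moved too after loess scaling. Textbook targets gave 13 rises (8 in the main fit), matrix proteases and inhibitors 8 (3) and cytokines 7 (2). Receptors, BMP genes, junctions and collagen modification, without a call in the main fit, had 1 rise each, and epithelial factors 1 fall. The mitosis and DNA replication lists stayed at 0. With 1 array left out, 12 to 48 passed (3 to 32 higher, 7 to 16 lower): 12 without TGF-β1 A or B, 26 without control A, 14 without control B, 42 without combination A or B, and 48 without calcitriol A or B; the fewer samples behind the spread enter each of these counts, and no other cause was tested. With the letters A and B as a replicate block 43 passed (28 higher, 15 lower), of which 42 were among the 145. Deviations of arrays with the same letter correlated at r = 0.09 between TGF-β1 and control, which cannot show whether the letters pair the arrays. In calcitriol-treated cells the count was 140, against 976 with limma-trend, 56 without the filter, 66 with the replicate block and 0 to 83 with 1 array left out, the lowest without combination A. The difference between both effects called 0 genes, and 1 with limma-trend. All 4 arrays lay above background for 131 of the 145 genes; signal over background limits the rest, among them CEMIP, ARHGAP26-IT1, SULT1B1, CDH6, EREG, SERPINB3, SERPINB4, ATP8A1, CYP39A1, SNTB1 and ACTBL2.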

Other observations

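Protein-coding genes that changed and belong to none of the lists numbered 64, and the following were chosen after their values were seen. Among the rises were IGF1R, the receptor for insulin-like growth factors (1.08 ± 0.10, SE, n = 2 per group, adjusted p = 0.0105), S1PR1, a sphingosine phosphate receptor (1.12), GABARAPL1, an autophagy protein (1.26), OLR1, a scavenger receptor for oxidised lipoprotein (1.21), MYO10, the motor of filopodia (1.01), PODXL, a cell surface sialomucin (0.81), and FERMT1, an integrin activator of epithelia (0.74). CD24, a surface glycoprotein with near-identical pseudogenes, was 2.01-fold higher, and CGB1 and CGB2, near-identical to CGB8, stood 1.15 and 1.09 higher. Among the falls were GRPR, the receptor for gastrin-releasing peptide (8.86 and 8.91 with TGF-β1, against 9.98 and 9.92 in controls, -1.06 ± 0.10, adjusted p = 0.00991), MUC5B, a gel-forming mucin (-1.05), SH3TC2 (-1.06), NECTIN1, an adhesion molecule of adherens junctions (-0.78), CDH7, a cadherin (-0.81), E2F5, a repressor of the E2F family (-0.73), and RGS2, a regulator of G protein signalling (-0.69). ATP8A1 and CYP39A1 lay at background with TGF-β1 and were at least 1.72-fold and 1.69-fold lower.

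The share of all genes that passed was 0.608%, at which a short list may hold none, and 12.6% had an unadjusted p under 0.05. Several functional groups held no gene that passed, which at that share is no result about their members. They were apoptosis regulators (34 tested, median -0.07, 6 at an unadjusted p under 0.05 in limma), Notch genes (24, -0.05, 3 at such a p), cholesterol and fatty acid synthesis (32, -0.10, 8), amino acid and unfolded protein stress (37, -0.02, 8), HOX genes (19, 0.03, 5) and cytosolic ribosomal proteins (46, -0.05, 2), and the lists of fibroblast (9), leukocyte (6), endothelial (6) and neuroendocrine (6) markers likewise, with 0, 0, 1 and 1 at an unadjusted p under 0.05. Of 39 hypoxia and glycolysis genes VEGFA rose and FBP1 fell, of 26 antioxidant genes SLC7A11 fell, of 28 ion channel genes SGK1 rose, and of 20 steroid enzymes SULT1B1 was higher and STS fell.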
